A study of Mus musculus with 14 samples.

Results

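The natriuretic peptide system was followed in mouse Ocy454 cells through 9 genes, namely the ligands Nppa, Nppb, Nppc and Ostn, the receptors Npr1, Npr2 and Npr3, and the cGMP-dependent protein kinases Prkg1 and Prkg2. These are 9 of the 39179 genes listed for the differentiation time course and 9 of the 35886 genes obtained for the sorted cells. The family was chosen by the measured levels of Npr3, which fell strongly in both experiments. The Npr3 values are therefore given as a description with no test, and the tests below concern the other 8 genes.

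Ocy454 is an osteocyte-like cell line that carries a thermosensitive large T antigen at all times, in every group compared here. The cells were grown at 33 °C and then moved to 37 °C to differentiate. In the time course, 2 libraries were made at each of days 1, 7, 10 and 14. In the sorting experiment, cells at day 17 were stained for surface CD61 (integrin β3), and the 10% of live cells with the lowest signal (CD61 low) and the 10% with the highest signal (CD61 high) gave 3 libraries each. Both gates were sorted from the same 3 separately collected groups of cells. All 14 libraries were made from polyA RNA of this 1 line, and no treatment with a natriuretic peptide is described for any of them.

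Natriuretic peptides are small secreted hormones that act through guanylyl cyclase receptors on the cell surface. Receptors of this kind make cGMP, which activates cGMP-dependent protein kinases, whereas the clearance receptor Npr3 has no cyclase domain and removes the peptides from the extracellular space. In the skeleton, C-type natriuretic peptide and its receptor Npr2 promote growth of endochondral bone, and osteocrin, the product of Ostn in bone cells and muscle, binds Npr3 and thereby spares the other ligands from clearance.

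The regions just before the start sites of the receptors are shown because Npr3 differs strongly between the groups while Npr2 and Npr1 differ far less. The region of Nppc is shown because this gene gave no read in any library. Sequences are the RefSeq windows from 250 bases before to 50 bases after the start, 300 bases each, read 5′ to 3′ on the strand of the gene in the build GRCm38.p6. Capitals mark matches on either strand to the GC box GGGCGG, the TATA box TATAAA and the CCAAT box CCAAT. The cyclic AMP response element TGACGTCA and the AP-1 motif TGANTCA were also searched and were not found in the windows of the 7 members that matched an entry.
Npr3: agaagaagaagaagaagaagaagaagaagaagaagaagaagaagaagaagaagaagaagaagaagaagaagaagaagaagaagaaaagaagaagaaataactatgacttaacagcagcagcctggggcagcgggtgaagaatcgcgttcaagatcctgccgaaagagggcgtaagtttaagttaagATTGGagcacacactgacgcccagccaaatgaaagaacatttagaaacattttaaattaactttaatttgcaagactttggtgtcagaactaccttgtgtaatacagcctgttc
Npr2: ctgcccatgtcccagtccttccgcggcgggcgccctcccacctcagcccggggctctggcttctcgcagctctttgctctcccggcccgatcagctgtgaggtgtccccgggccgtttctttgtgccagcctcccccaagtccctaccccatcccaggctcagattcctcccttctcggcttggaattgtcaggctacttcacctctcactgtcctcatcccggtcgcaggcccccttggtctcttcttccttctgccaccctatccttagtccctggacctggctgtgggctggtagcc
Npr1: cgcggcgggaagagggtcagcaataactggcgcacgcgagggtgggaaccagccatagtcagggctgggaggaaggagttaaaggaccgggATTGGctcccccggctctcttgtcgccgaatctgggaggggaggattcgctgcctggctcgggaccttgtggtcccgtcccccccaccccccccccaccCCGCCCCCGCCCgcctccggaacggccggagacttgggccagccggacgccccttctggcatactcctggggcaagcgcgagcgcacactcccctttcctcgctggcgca
Nppc: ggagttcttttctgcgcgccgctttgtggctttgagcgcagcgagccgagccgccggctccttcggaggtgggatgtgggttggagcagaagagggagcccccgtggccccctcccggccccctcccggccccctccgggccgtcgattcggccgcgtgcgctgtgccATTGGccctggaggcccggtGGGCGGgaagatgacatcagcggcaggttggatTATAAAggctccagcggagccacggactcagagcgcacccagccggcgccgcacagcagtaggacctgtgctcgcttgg

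The Npr3 window lies at chr15:11907322-11907621 on the minus strand, the Npr2 window at chr4:43631685-43631984 on the plus strand, the Npr1 window at chr3:90465817-90466116 on the minus strand and the Nppc window at chr1:86670524-86670823 on the minus strand. The Npr3 window opens with a long simple repeat and holds 39.0% G and C, and 91.6% of the 32851 windows in the table are at least as rich. The Npr2 and Npr1 windows hold 64.0% and 69.7% G and C, values that 20.3% and 10.1% of all windows reach. The Npr3 window has 1 CCAAT box and no GC box or TATA box, the Npr1 window has 2 GC boxes and 1 CCAAT box, and the Npr2 window holds no match. Of all windows, 35.7% hold a GC box, 13.6% a TATA box, 37.4% a CCAAT box, 1.79% a cyclic AMP response element and 7.81% an AP-1 motif. The windows of the 3 genes for the classical ligands, Nppa, Nppb and Nppc, each hold 1 TATA box, and none of the receptor windows does. Matches of different motifs shared no base, and a match describes letters in a window and not a bound site. Ostn and Prkg2 had no entry among these windows.

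The libraries of the time course held 27518605 to 34311238 reads and those of the sorted cells 18815602 to 19220064 estimated counts. Replicates of 1 group differed by more than sampling noise, with a chi-square per gene of 2.35 to 6.74 in the time course and 7.17 to 20.8 in the sorted cells. Itgb3, which encodes CD61, was at 5.31 to 6.10 CPM in the CD61 low libraries and 100.1 to 130 CPM in the CD61 high libraries. The 10 markers of osteoblasts and osteocytes summed to 23483 to 35469 CPM over the time course, to 16865 to 20559 CPM in CD61 low cells and to 48129 to 50642 CPM in CD61 high cells. Most of each sum was Col1a1, whose mean was 34709 CPM at day 1 and 21676 to 27552 CPM on later days. Pdpn was also lower later, with means of 28.2, 22.6, 16.6 and 19.3 CPM at days 1, 7, 10 and 14. By contrast, Runx2, Sp7, Alpl, Bglap, Dmp1, Phex, Mepe and Sost had higher means on each later day. Of the 10, Pdpn alone had a lower mean in CD61 high than in CD61 low cells, 11.1 against 15.5 CPM. Among the defining osteocyte markers, Mepe and Sost were at 0 at day 1, and Mepe was at 0 in CD61 low cells. Scaling factors by the trimmed mean of M-values (TMM) were 1.10 to 1.13 in the CD61 low libraries and 0.895 to 0.909 in the CD61 high libraries, so the levels in sorted cells are given as CPM after this scaling.

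In both experiments calls required an adjusted p under 0.01 together with a log2 difference (Log2FC) beyond 1 in either direction. In the time course the Log2FC is that of log2(CPM + 1), and the added 1 makes it smaller than the ratio of CPM for low genes. The comparisons of days 7, 10 and 14 share the day 1 libraries, so their agreement for a gene is not independent.

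The classical ligands were nearly silent. Nppa, the gene for atrial natriuretic peptide (chromosome 4, 148085091 to 148086583 in GRCm39), gave 1 read among the 250823570 reads of the time course, in a day 1 library, and no count among the 114279629 of the sorted cells. Nppb, which encodes B-type natriuretic peptide and lies 13428 bases from Nppa, gave 1 read in the time course, at day 14, and 3 counts in the sorted cells, 2 in CD61 low replicate 1 and 1 in replicate 2. Nppc, the gene for C-type natriuretic peptide (chromosome 1, 86594013 to 86598301), gave 0 reads in all 14 libraries.

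A total of 3 counts over all libraries corresponds to 0.0120 CPM in the time course and, before TMM scaling, to 0.0263 CPM in the sorted cells, so a level of Nppc up to those limits is allowed. These limits cover counting error only. All 3 ligand genes fell below the filters and were not tested, and no fold change is given for them. Of the 5 markers of cardiac muscle, a tissue where Nppa and Nppb are abundant, Myh6 and Actc1 were at 0 in the sorted cells and the means of Myh7 and Tnni3 were at most 0.194 CPM, while the mean of Tnnt2 went from 1.499 CPM with low CD61 to 5.97 CPM with high CD61.

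Ostn (chromosome 16, 27125355 to 27171028 on the plus strand) was the only ligand gene with reads in every library, and its direction differed between the experiments. Its level was 0.856 and 0.627 CPM at day 1, 3.30 and 2.32 CPM at day 7, 1.77 and 2.00 CPM at day 10, and 3.29 and 3.13 CPM at day 14. Both day 1 libraries lay below every later library, and the day 7 and day 14 libraries overlapped. The means rose 3.79-fold from day 1 to day 7 and 4.33-fold from day 1 to day 14.

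By limma with Benjamini-Hochberg adjustment, the Log2FC of Ostn was 1.12 ± 0.14 (SE) at day 7 with an adjusted p of 1.6e-07 and 1.28 ± 0.14 at day 14 with an adjusted p of 1.1e-08, and Ostn was called higher at both days. At day 10 the Log2FC was 0.73 with an adjusted p of 6.6e-05, below the size needed for a call, whereas a pseudocount of 0.1 gave 1.25 and edgeR on recovered reads 1.31, both with a call. Only libraries of days 7, 10 and 14 exceeded the filter of 1 CPM for Ostn, so a higher level after day 1 was part of its being tested, but it was also called at days 7 and 14 when no filter was set, with limma adjusted p of 0.00077 and 0.000257 (Benjamini-Hochberg). Without day 7 replicate 1 the Log2FC at day 7 was 0.94 and the call was lost. The reads behind these levels were few, 49 at day 1 and 199 at day 14 over both libraries.

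In the sorted cells Ostn was lower where CD61 was high. The CD61 low libraries stood at 8.75, 6.57 and 6.88 CPM and the CD61 high libraries at 0.411, 0.748 and 0.353 CPM. The 2 groups were far apart, with counts of 140 to 183 in CD61 low cells and 6 to 13 in CD61 high cells. The mean was 14.7-fold lower in CD61 high cells, and edgeR with Benjamini-Hochberg adjustment gave a Log2FC of -3.85 ± 0.28 (SE) and an adjusted p of 2.6e-06. This call held in each alternative that was run, with Log2FC from -4.25 to -3.66 and adjusted p from 2.8e-25 to 3.0e-05. The 6 macrophage markers summed to 12.8 to 15.8 CPM in CD61 low cells and 8.24 to 8.92 CPM in CD61 high cells, nearly all of it from Cd68, while Adgre1 was at 0 in both gates, and their part in the differences between gates was not tested. In these bulk libraries fewer cells that make a transcript and less transcript per cell cannot be told apart.

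**Figure D1:**
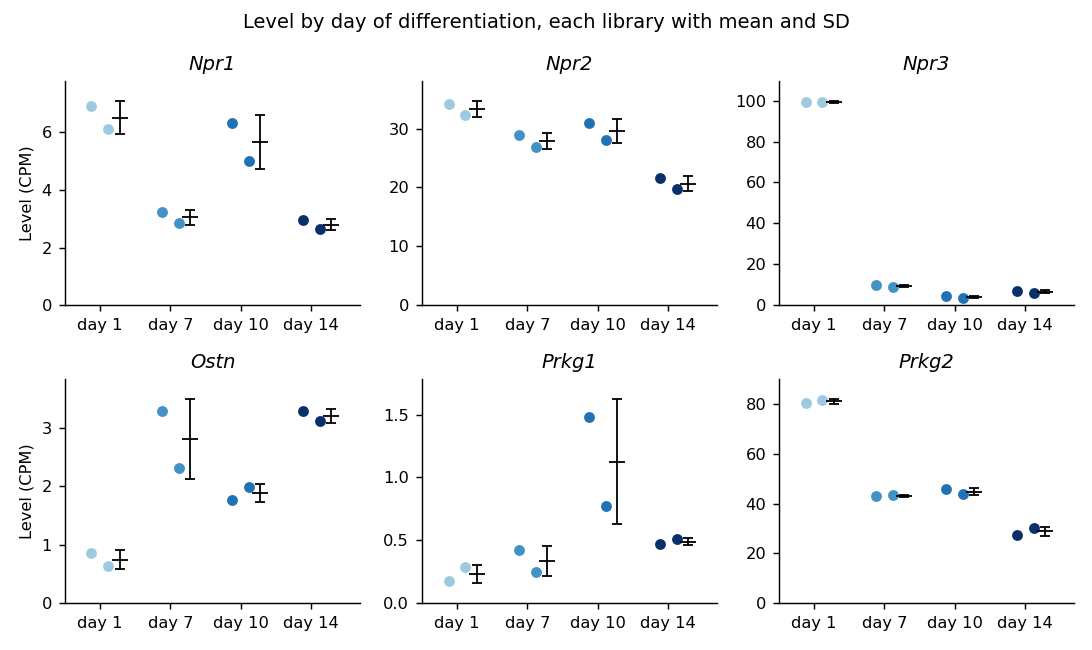
Level in CPM (vertical axes, from 0) of the 6 genes with more than a few reads at days 1, 7, 10 and 14, with 1 point per library and the mean ± SD of 2 libraries beside them. Npr3 drops from 99.1 to 99.5 CPM at day 1 to 3.48 to 4.30 CPM at day 10, Prkg2 declines from 80.5 to 81.8 CPM to 27.5 to 30.1 CPM at day 14, and Ostn lies lowest at day 1.

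Npr3, the clearance receptor (chromosome 15, 11839982 to 11907373 on the minus strand), had the widest range of the 9 genes. Its level was 99.5 and 99.1 CPM at day 1, 9.75 and 9.08 CPM at day 7, 4.30 and 3.48 CPM at day 10, and 6.99 and 6.03 CPM at day 14. The days did not overlap, and they ranked day 1, day 7, day 14 and day 10 from highest to lowest. Npr3 therefore lost most of its level within the first interval and was 1.67-fold higher at day 14 than at day 10.

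In the sorted cells Npr3 stood at 16.6, 19.6 and 17.1 CPM in CD61 low libraries and at 0.587, 0.518 and 0.412 CPM in CD61 high libraries. The gates did not overlap, and the CD61 high mean of 0.506 ± 0.0881 CPM (SD, n = 3) was 35.2-fold below the CD61 low mean of 17.8 ± 1.59 CPM. The CD61 high value rests on 7 to 10 counts per library against 348 to 418 in CD61 low cells. Against day 1 the Log2FC of Npr3 was -3.27 at day 7, -4.36 at day 10 and -3.74 at day 14. Between the gates it was -5.12, and the alternatives gave -5.42 to -5.001 between the gates.

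Of the annotated Npr3 transcripts, Npr3-201, of 6892 bases, took 87.8 to 96.7% of the estimated counts of the gene in CD61 low cells. Transcripts were not compared in CD61 high cells, where 10 counts or fewer were shared among them. Of the 4 smooth muscle markers, Actg2 moved with Npr3 in the time course, with means of 35.8, 4.85, 1.17 and 3.43 CPM at days 1, 7, 10 and 14. Des was lowest at day 1, with 0.691, 2.23, 1.45 and 3.48 CPM, and the means of Cnn1 and Myh11 stayed under 1 CPM at each day. The 4 genes summed to 36.6 to 37.1 CPM at day 1, 7.08 to 7.47 CPM at day 7, 2.77 to 3.09 CPM at day 10 and 6.35 to 8.47 CPM at day 14. In sorted cells the sums were 4.69 to 5.32 CPM in CD61 low and 4.89 to 5.76 CPM in CD61 high cells, and the part of such cells in the Npr3 values was not tested.

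The genes whose pattern was most like that of Npr3 were found by the root mean square difference of log2(CPM + 1) over the 14 libraries. Levels were centred on each gene's mean within each experiment. The search covered 9858 other genes, tested in both experiments and averaging 5 CPM or more in each, so genes of low level were left out. The added 1 shrinks differences at low levels, such as those of Npr3 in CD61 high cells, so the likeness depends on it. Ogn, which encodes the secreted proteoglycan osteoglycin, was the nearest at 0.19. It fell from 627 CPM at day 1 to 52.0, 20.01 and 38.8 CPM at days 7, 10 and 14, and stood at 92.5 CPM in CD61 low cells against 5.48 CPM in CD61 high cells. Plscr2, a phospholipid scramblase, followed at 0.45, then Ptx3, a secreted pentraxin, and Fbn1, the microfibril protein fibrillin-1, both at 0.54, and Cxcl10, a chemokine, at 0.55. Like Npr3 itself, Ogn and Ptx3 were higher at day 14 than at day 10, whereas Plscr2, Fbn1 and Cxcl10 were not.

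**Figure D2:**
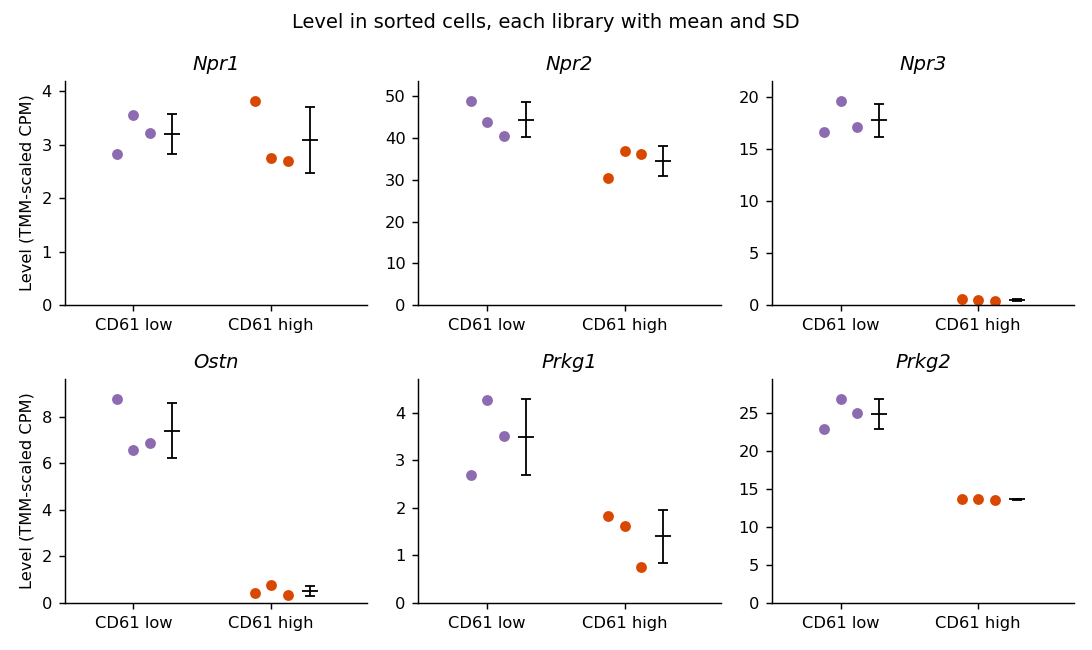
Level in TMM-scaled CPM (vertical axes, from 0) of the same 6 genes in sorted cells, with 1 point per library and the mean ± SD of 3 libraries. The gates lie apart for Npr2, Npr3, Ostn, Prkg1 and Prkg2 and overlap for Npr1, and the CD61 high values of Npr3 and Ostn are all below 1 CPM.

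The cyclase receptors differed far less between groups. Npr2, the guanylyl cyclase that responds to C-type natriuretic peptide (chromosome 4, 43631339 to 43651436 on the plus strand), stood at 34.2 and 32.3 CPM at day 1, 28.9 and 26.9 CPM at day 7, 31.0 and 28.1 CPM at day 10, and 21.5 and 19.7 CPM at day 14. Days 7 and 10 overlapped, day 1 lay above all later libraries and day 14 below all earlier ones. The Log2FC at day 14 was -0.67 ± 0.07 (SE) with a limma adjusted p of 3.1e-09 (Benjamini-Hochberg), a difference under the size needed for a call.

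In sorted cells Npr2 stood at 48.8, 43.9 and 40.5 CPM in CD61 low and 30.4, 37.0 and 36.2 CPM in CD61 high libraries. The gates did not overlap, but the Log2FC of -0.36 ± 0.10 (SE) with an edgeR adjusted p of 0.014 (Benjamini-Hochberg) did not pass. Its main transcript Npr2-201 took 60.3 to 89.7% of the counts of the gene.

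Npr1, the guanylyl cyclase for atrial and B-type natriuretic peptide (chromosome 3, 90356458 to 90373748 on the minus strand), alternated between a higher and a lower level over the days, and its differences at days 7 and 14 lay near the size needed for a call. Its level was 6.91 and 6.12 CPM at day 1, 3.24 and 2.85 CPM at day 7, 6.34 and 4.996 CPM at day 10, and 2.94 and 2.65 CPM at day 14. Days 1 and 10 overlapped, days 7 and 14 overlapped, and the first pair lay above the second. The Log2FC was -0.89 at day 7 (limma adjusted p of 6.3e-07, Benjamini-Hochberg), -0.18 at day 10 and -0.98 ± 0.12 (SE) at day 14 with an adjusted p of 8.8e-08, and none of them passed.

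At day 7 a pseudocount of 0.1 and edgeR on recovered reads called Npr1 lower, with -1.07 and -1.05. The day 14 difference of Npr1 was just under the size needed for a call, and 3 alternatives called it lower, a pseudocount of 0.1 with -1.19, quantile normalization with -1.08 and edgeR on recovered reads with -1.18. It was also called without day 1 replicate 2 at -1.06 or without day 14 replicate 1 at -1.04. Between days 7 and 10 Npr1 differed by 0.71 with a limma adjusted p of 2.3e-05, and between days 10 and 14 by -0.81 with an adjusted p of 3.8e-06 (Benjamini-Hochberg), again without a call. In sorted cells Npr1 did not separate the gates. It stood at 2.82, 3.57 and 3.22 CPM in CD61 low and 3.81, 2.76 and 2.71 CPM in CD61 high libraries, and the Log2FC of -0.05 ± 0.22 (SE) had an edgeR adjusted p of 0.86 (Benjamini-Hochberg). Its sign turned when CD61 low replicate 2, CD61 high replicate 2 or CD61 high replicate 3 was left out, with values of 0.02 to 0.03.

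Levels of different genes were compared per length, as CPM per kilobase in the time course and as TPM in the sorted cells. At day 1 Npr3 was the most abundant of the 3 receptors, making up 64.2 and 65.6% of their summed CPM per kilobase and 2.14 and 2.26 times the level of Npr2. Its share in the 2 libraries of a day was then 18.3 and 18.4% at day 7, 7.86 and 7.22% at day 10, with 17.4 and 16.6% found on day 14. By TPM, the Npr3 share was 13.3 to 17.8% in CD61 low cells and 0.480 to 1.80% in CD61 high cells. From day 7 on, and in both gates, Npr2 was the most abundant receptor in every library.

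**Figure D3:**
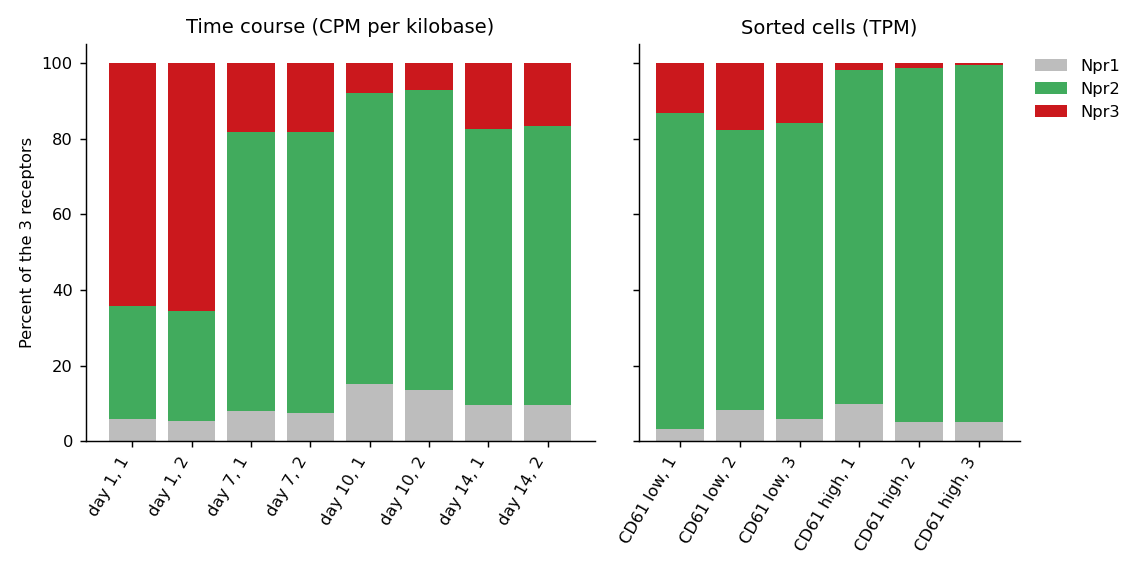
Percent of the summed level of Npr1, Npr2 and Npr3 (vertical axis) in each library, per length, with the time course as CPM per kilobase and the sorted cells as TPM. The Npr3 share is 64.2 to 65.6% at day 1, at most 18.4% on later days, and at most 1.80% in CD61 high cells.

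Over the 6 genes that were detected, the order of the levels per length differed between groups. At day 1 it was Npr3 at 14.4, Prkg2 at 13.1, Npr2 at 6.53, Npr1 at 1.24, Ostn at 0.523 and Prkg1 at 0.0268 CPM per kilobase. At day 14 it was Prkg2 at 4.65, Npr2 at 4.05, Ostn at 2.26, Npr3 at 0.941, Npr1 at 0.535 and Prkg1 at 0.0569 CPM per kilobase. Neighbours in these 2 orders did not overlap between libraries.

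In CD61 low cells the order by TPM was Npr2 at 29.7, Prkg2 at 17.4, Ostn at 11.2, Npr3 at 5.93, Npr1 at 2.22 and Prkg1 at 1.02. In CD61 high cells it was Npr2 at 17.4, Prkg2 at 7.74, Npr1 at 1.24, Ostn at 0.599, Prkg1 at 0.378 and Npr3 at 0.219. Ostn overlapped with Prkg1 and Prkg1 with Npr3 in CD61 high cells, so the last places there are not distinguished by these libraries. TPM depends on how counts were split among transcripts, and Npr1, with 85.4 to 100% of its counts on Npr1-201, varied from 1.27 to 3.26 TPM among CD61 low libraries while its counts varied from 59 to 76.

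Of the kinases, Prkg2 was the abundant one. Prkg2 (chromosome 5, 99076863 to 99185470 on the minus strand) encodes the membrane-bound type II kinase, which acts below Npr2 in growth plate cartilage. It stood at 80.5 and 81.8 CPM at day 1, 42.9 and 43.4 CPM at day 7, 45.8 and 43.8 CPM at day 10, and 27.5 and 30.1 CPM at day 14. The day 1 libraries were the highest and the day 14 libraries the lowest, and days 7 and 10 were close without overlapping. The mean at day 14 was 2.82-fold below day 1, and limma gave a Log2FC of -1.47 ± 0.05 (SE) with an adjusted p of 1.5e-18 (Benjamini-Hochberg), a call that each alternative kept.

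At days 7 and 10 the Log2FC of Prkg2 was -0.90 and -0.84, with limma adjusted p of 1.0e-13 and 2.8e-13 (Benjamini-Hochberg), and neither passed the size needed. In sorted cells Prkg2 stood at 22.8, 26.7 and 24.9 CPM in CD61 low and 13.7, 13.6 and 13.5 CPM in CD61 high libraries. The gates did not overlap, and the edgeR Log2FC of -0.87 ± 0.10 (SE) had an adjusted p of 5.5e-05 (Benjamini-Hochberg) without a call. Scaling by library size alone moved it to -1.17 and called it, and moved the median of all genes by -0.29. Counts of Prkg2 were assigned to 2 annotated transcripts in all 6 libraries.

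Abcb1b, a multidrug efflux transporter, had the pattern most like that of Prkg2, with a root mean square difference of 0.06. It went from 48.9 CPM at day 1 to 15.3 CPM at day 14, and was at 24.1 CPM in CD61 low cells against 13.1 CPM in CD61 high cells. Dram1, a lysosomal membrane protein, and Vcp, an ATPase of protein quality control, followed at 0.13 each. The genes most like Ostn on this log2(CPM + 1) scale were Sdf2l1, a chaperone component of the endoplasmic reticulum, at 0.25, Car6 at 0.36 and Paqr3 at 0.39. In CD61 low and CD61 high cells Sdf2l1 was at 76.4 and 13.4 CPM, Car6 at 45.6 and 5.78 CPM and Paqr3 at 16.5 and 4.56 CPM, against 7.40 and 0.504 CPM for Ostn. At days 1 and 14 they were at 23.0 and 39.8, 8.31 and 24.8, and 4.87 and 7.10 CPM, against 0.742 and 3.21 CPM for Ostn. As ratios of CPM, these differences were smaller than those of Ostn. The genes most like Prkg1 on this scale were Dnajc3, a co-chaperone of the endoplasmic reticulum, at 0.20, and Ttc17 and the Wnt receptor gene Fzd4 at 0.22. Ostn and Prkg1 themselves averaged under 5 CPM in each experiment, so every gene searched had a higher average level. As ratios of CPM, Dnajc3, Ttc17 and Fzd4 rose less than Prkg1, whose means were 0.230 CPM at day 1 and 1.13 CPM at day 10. On these days Dnajc3 was at 127 and 203 CPM, Ttc17 at 39.3 and 61.7 CPM and Fzd4 at 8.42 and 12.8 CPM.

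Prkg1 (chromosome 19, 30541889 to 31742479 on the minus strand), which encodes the soluble type I kinase of smooth muscle and platelets, was near the limit of detection in the time course. It stood at 0.177 and 0.282 CPM at day 1, 0.420 and 0.246 CPM at day 7, 1.48 and 0.774 CPM at day 10, and 0.466 and 0.509 CPM at day 14, from 6 to 45 reads per library. Only day 10 replicate 1 exceeded the filter of 1 CPM, so the gene entered the test through that library alone and a high day 10 value was a condition of its being tested. Its days are therefore given as a description, and tests of the time course that kept the filter are not used for it. With no filter, limma gave a day 10 Log2FC of 0.77 and an adjusted p of 0.0038 (Benjamini-Hochberg), without a call. The added 1 CPM weighs on a gene this low, as the day 10 mean was 4.90-fold the day 1 mean. The Log2FC was 1.85 with a pseudocount of 0.1 and 2.25 with edgeR on recovered reads. Both fits kept the filter, so these values are a description and not a test.

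Among the sorted cells Prkg1 stood at 2.68, 4.27 and 3.51 CPM in CD61 low and 1.82, 1.61 and 0.765 CPM in CD61 high libraries. The gates did not overlap, the mean was 2.49-fold lower in CD61 high cells, and edgeR called it lower with a Log2FC of -1.31 ± 0.31 (SE) and an adjusted p of 0.0057 (Benjamini-Hochberg). The call rested on single libraries. Without CD61 low replicate 2, CD61 low replicate 3, CD61 high replicate 2 or CD61 high replicate 3 the adjusted p was 0.0282, 0.0101, 0.0105 or 0.0181, with Log2FC from -1.43 to -1.03, and the call was lost. Over all alternatives the adjusted p ran from 0.000521 to 0.0282.

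**Figure D4:**
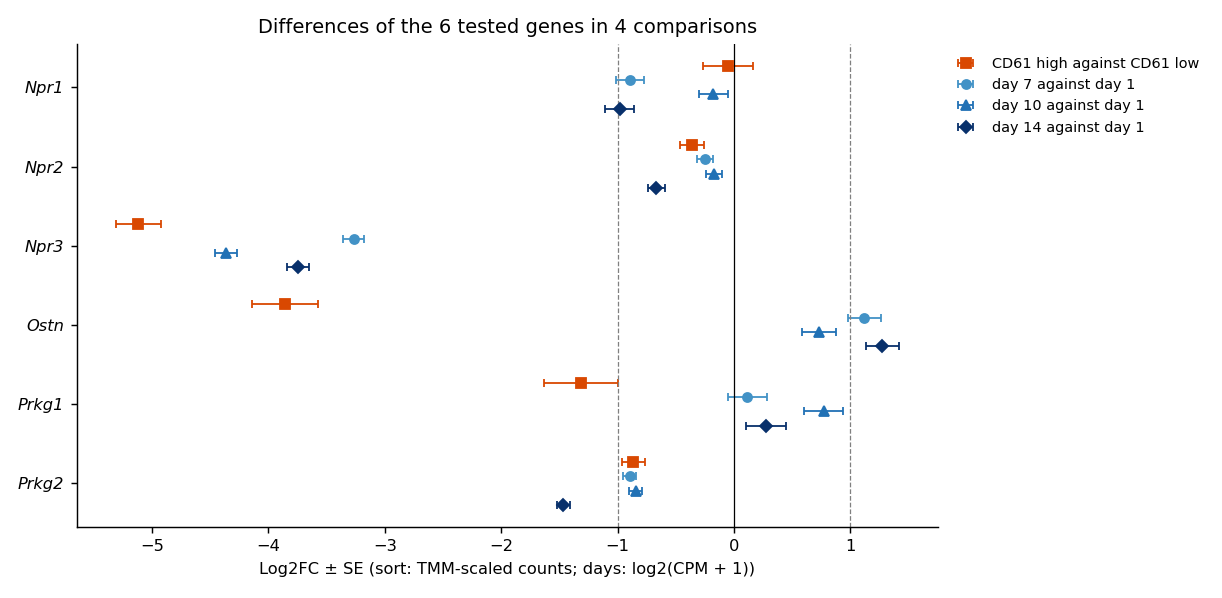
Log2FC ± SE (horizontal axis) of the 6 genes for CD61 high against CD61 low and for days 7, 10 and 14 against day 1, with dashed lines at -1 and 1. Npr3 lies between -5.12 and -3.27 in all 4 comparisons and is drawn as a description, and Ostn lies at -3.85 between the gates but between 0.73 and 1.28 over the days.

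Counted over the 8 genes other than Npr3, of which 5 passed the filters, edgeR called 2 between the gates, Ostn and Prkg1, both lower in CD61 high cells, where 9.22% of all 12077 genes tested were called. In the time course the counts leave out Prkg1, which was tested through 1 high day 10 library, so 4 genes remain. Ostn is kept, although it passed the filter only through days 7, 10 and 14, where it was higher than at day 1. Its calls at days 7 and 14 were the same with no filter. At day 7 limma called 1, Ostn, against 9.11% of the 12725 genes tested. At day 10 limma called 0, against 10.5% of genes, with 3 at an unadjusted p below 0.05, and edgeR on recovered reads called 1, Ostn. At day 14 limma called 2, Ostn higher and Prkg2 lower, against 13.4% of genes.

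Between successive days these 4 genes gave no call by limma. Between days 7 and 10, where 2.22% of genes were called, 2 had an unadjusted p below 0.05 and edgeR on recovered reads also called 0. Between days 10 and 14, where 2.96% of genes were called, the 4 genes each had an unadjusted p below 0.05 and edgeR on recovered reads also called 0. With so few genes, these counts are given as a description beside the percentage of all genes and not as a property of the family.

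The list of other pathway genes held 53 genes, of which 24 were tested between the gates and 26 over the days. Between the gates 5 were called higher and 5 lower in CD61 high cells, or 41.7% of those tested against 9.22% of all genes, and the median Log2FC was -0.23 against 0.0035 over all genes. At day 14 against day 1, 5 were called higher and 4 lower, or 34.6% against 13.4% of all genes, with a median of -0.044 against -0.028. At day 7, 4 were higher and 2 lower, or 23.1% against 9.11%, with a median of -0.26 against -0.047. At day 10, 4 were higher and 3 lower, or 26.9% against 10.5%, with a median of -0.13 against 0.023. The list was drawn up with earlier results of these data known, so these shares are a description. Nos1, Nos2, Pde1b and Irag1 exceeded the filter of 1 CPM only on days when they were high, so a difference was part of their being tested, and their calls were the same with no filter. The shares over the days include these genes, and shares without them are not given. Nos1 and Pde1b were among the 6 called at day 7, the 7 at day 10 and the 9 at day 14. Nos2 was among those at days 7 and 14, and Irag1 among those at days 10 and 14. No excess over all genes is read from these shares. Of the 9 genes for other guanylyl cyclases and their peptide ligands, none passed the filter in either experiment.

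Among 7 genes of peptide processing and breakdown, 4 were tested and Pcsk6 was called in both experiments. Pcsk6, a proprotein convertase that activates the natriuretic peptide convertase corin, went from 42.6 ± 1.06 CPM at day 1 to 868 CPM at day 7 and 593 CPM at day 10, reaching 908 ± 11.8 CPM (SD, n = 2) on day 14. Its Log2FC was 4.38 at day 14 by limma and 1.43 between the gates by edgeR, where it stood at 245 ± 37.1 CPM in CD61 low cells against 657 ± 45.8 CPM in CD61 high cells. Corin itself was at 0 CPM at days 1 and 7 and in both gates, with means of 0.0648 and 0.0619 CPM at days 10 and 14, below the level of 3 counts in a library, and was not tested. Furin, Mme (neprilysin, which degrades natriuretic peptides) and Ide (insulin-degrading enzyme) were tested and not called.

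Nitric oxide synthases feed the soluble guanylyl cyclases, the other source of cGMP. Nos2, the inducible enzyme, was at 0.0600 CPM at day 1, 1.48 CPM at day 7, 0.944 CPM at day 10 and 17.0 CPM at day 14, and was called higher at days 7 and 14 and, as the only pathway gene, between days 10 and 14. In sorted cells it rose from 6.22 ± 1.24 CPM in CD61 low to 13.4 ± 2.00 CPM in CD61 high cells, with a Log2FC of 1.10. Nos1, the neuronal enzyme, was called lower at each later day, with 3.88 CPM at day 1 and 0.124 CPM at day 14.

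Of 15 cGMP phosphodiesterases and exporters, Pde3b, a phosphodiesterase that cGMP inhibits, and Pde5a, which degrades cGMP, were called lower in CD61 high cells. Pde3b was at 24.9 ± 0.973 CPM in CD61 low cells against 5.196 ± 0.454 CPM in CD61 high cells, and Pde5a at 18.5 ± 1.08 and 7.29 ± 0.813 CPM. At day 14 neither was called, the Log2FC of Pde3b being -0.998 and so just short of the size needed. Pde1b, a calmodulin-dependent phosphodiesterase, was called higher at day 14 with 0.623 CPM at day 1 and 3.39 CPM at day 14. Abcc5, an exporter of cyclic nucleotides, was called lower at days 10 and 14 with 112 CPM at day 1 and 40.0 CPM at day 14.

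Of 12 effectors of cGMP and its kinases, Kcnma1, the pore subunit of a calcium-activated potassium channel, and Irag1, a substrate of the type I kinase, were called higher in both experiments. Kcnma1 went from 4.22 CPM at day 1 to 28.7 CPM at day 14 and from 14.5 CPM in CD61 low to 40.0 CPM in CD61 high cells. Irag1, listed as Mrvi1, went from 0.405 to 1.83 CPM and from 1.09 to 2.75 CPM, and it was also the only pathway gene called between days 7 and 10. Sox9, the chondrogenic transcription factor on which the type II kinase acts in cartilage, was called higher between the gates. It stood at 36.7 ± 4.09 CPM in CD61 low cells against 94.5 ± 6.54 CPM in CD61 high cells. Rgs2, a brake on G protein signalling, was called lower between the gates at 2.67 and 0.819 CPM. Over the days Rgs2 went the other way without a call, at 1.23, 1.23, 2.59 and 1.98 CPM at days 1, 7, 10 and 14. The 5 chondrocyte markers summed to 5.30 to 7.13 CPM in CD61 low libraries against 7.95 to 12.1 CPM in CD61 high libraries, mostly from Acan at means of 5.77 and 7.34 CPM, with Col2a1 at 0.556 and 2.00 CPM and Matn1 or Col10a1 at 0 in 1 of the gates each, and their part in the Sox9 difference was not tested.

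Of 7 genes for the G proteins and lipases to which Npr3 can couple, Plcb1 and Plcb4, phospholipases C of the beta class, were called lower in both experiments. Plcb1 was at 34.3 CPM at day 1 and 15.3 CPM at day 14, and at 21.1 CPM in CD61 low cells against 6.95 CPM in CD61 high cells. Plcb4 was at 28.9 and 12.8 CPM at days 1 and 14, and at 16.2 and 4.71 CPM in the gates. Gnai2 and Gnai3, genes for inhibitory G protein subunits, and Plcb3 were tested in both experiments and not called.

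**Figure D5:**
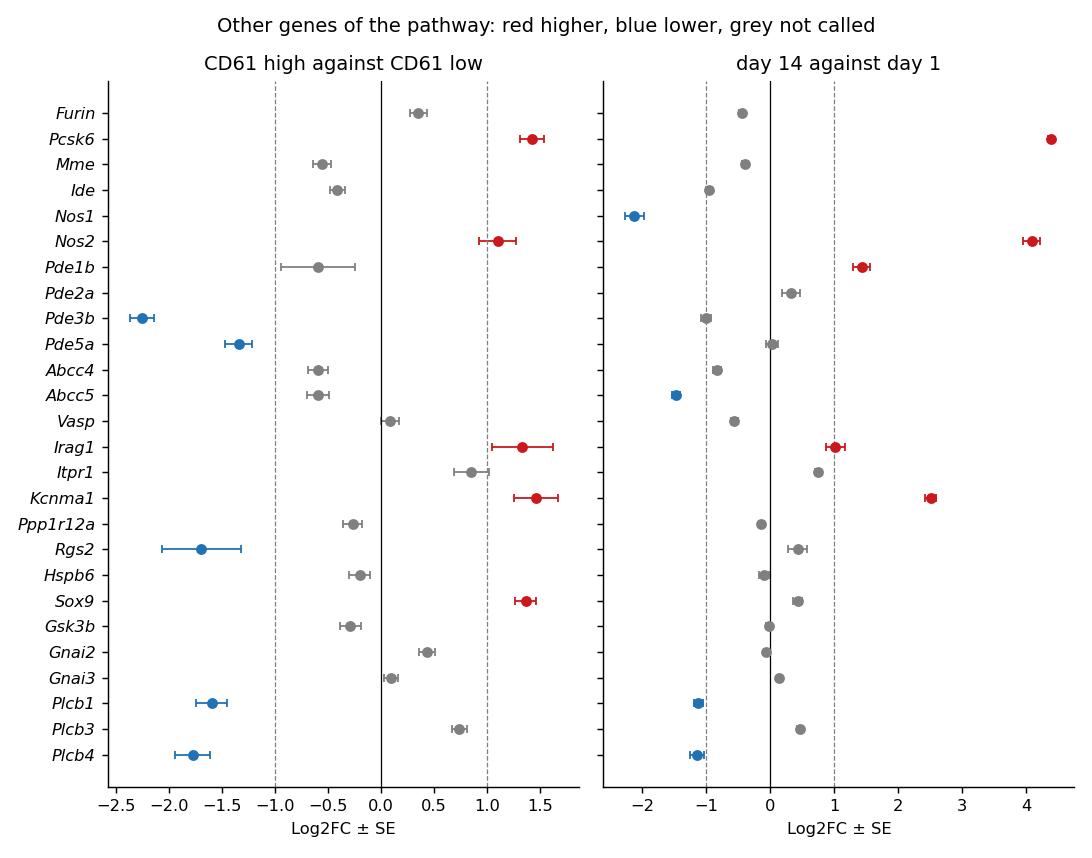
Log2FC ± SE (horizontal axes) of the other pathway genes that were tested, between the gates (left) and at day 14 against day 1 (right), with red for called higher, blue for called lower and grey for not called. Pcsk6, Nos2, Irag1 and Kcnma1 are red and Plcb1 and Plcb4 blue on both sides, while Pde3b and Pde5a are blue between the gates alone.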

How the data were processed

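RNA-sequencing was measured in 14 libraries, grouped by the labels, and the members and gene lists were chosen with earlier results of these data known. For the time course the authors aligned reads with STAR, counted them with HTSeq and deposited CPM for 39179 genes. The annotation of that table and the tool versions are not given in the sources used here. In each library 99.99 to 100% of its values lay within 0.01 of a whole read, and edgeR on the recovered reads called 1643, 1858, 2292, 550 and 731 genes for days 7, 10 and 14 against day 1, day 10 against day 7 and day 14 against day 10, where limma called 1159, 1334, 1707, 282 and 377. The deposited table also lists gene lengths (another unit, bases), used for CPM per kilobase. For the sorted cells the authors ran Salmon on the GRCm39 transcriptome, release 104, and deposited estimated counts and TPM per transcript. The limit that a count of 0 allows in 1 library is 3 counts, or 0.0874 to 0.109 CPM in the time course and, after TMM scaling, 0.141 to 0.146 CPM in CD61 low and 0.173 to 0.176 CPM in CD61 high cells.

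Estimated counts were summed per gene over 115556 of 116747 transcripts with GENCODE M39 (99.3 to 99.4% of counts), rounded and scaled by TMM. The quasi-likelihood test of edgeR 4.0.16 was run on genes whose scaled counts reached 5 in each of the 6 libraries. An SE given or drawn for an edgeR Log2FC is the size of that Log2FC divided by the square root of the F statistic of the test. CPM were tested as log2(CPM + 1) with limma 3.58.1 (trend) over all 8 libraries, for genes above 1 CPM in at least 1 library. Both used Benjamini-Hochberg adjustment over all genes tested, in R 4.3.3. Both fits were run on simulated data with known changes, for the gates and for day 14 against day 1. The changes were placed in genes with more counts than Prkg1 had in the time course, with 1 setting of the spread for all genes. Genes that low and the other comparisons of days were not covered. Alternatives were DESeq2 1.42.0, other scalings, filters, pseudocounts and thresholds, a replicate block and leaving out each library. The named genes are the 9 members, the pathway genes called in a comparison and some that were not, Itgb3 and markers of cell types. The 5 genes most like Npr3 or 3 most like another called member are also named. The study's methods call the libraries of a day biological duplicates and describe 3 independent groups of cells for the sort, each giving both gates, and all come from 1 line, so p-values measure the spread between such cultures. The sources used here do not say whether counting used strand, and exons of other genes overlap part of Nppa, Ostn, Npr1, Npr2, Npr3 and Prkg2. Tables were handled with pandas 2.3.3 and figures drawn with matplotlib 3.10.9.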

Additional observations from a re-analysis of the deposited data

How the results depend on the processing

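Npr3, by which the family was chosen, is given as a description only, and its Log2FC between the gates was -5.42 to -5.001 over the alternatives. Reversals were small differences without a call. Npr1 between the gates was -0.05 and ran from -0.23 to 0.030 when 1 library was left out, above 0 without CD61 low replicate 2, CD61 high replicate 2 or CD61 high replicate 3. Prkg1 at day 7 became -0.061 with quantile normalization, and Prkg2 between days 7 and 10 became -0.012 with quantile normalization and -0.017 with TMM scaling or edgeR on recovered reads.

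Among the 8 genes other than Npr3, the count called between the gates was 2 and ran from 1 to 2 when 1 library was left out, since Prkg1 was lost. It was 3 with library size alone, a scaling under which the median over all genes was -0.29 and the share of higher calls was 24.7% in place of 52.6%. At day 7 the count was 1, and 2 with a pseudocount of 0.1 or edgeR on recovered reads, 0 with a filter at a mean of 5 CPM, and 0 to 1 when 1 library was left out. At day 10 it was 0, and 2 with the pseudocount or edgeR, and 0 to 1 when 1 library was left out. At day 14 it was 2, and 1 with the filter at 5 CPM and 3 with the pseudocount, quantile normalization or edgeR. Between days 7 and 10 it was 0, and 1 with the pseudocount or edgeR. The counts above 0 at day 10 and between days 7 and 10 include Prkg1, which passed the filter through 1 high day 10 library. The counts of 1 at day 7 and 2 at day 14 include Ostn, which passed it only through days after day 1. The pathway counts were 6, 7 and 9 at days 7, 10 and 14 and 3, 4 and 5 with the filter at 5 CPM, which tests fewer genes. Between days 7 and 10 the pathway count was 1, and 2 with the pseudocount and 0 with that filter, and between days 10 and 14 it was 1 and became 0 with that filter. Over all genes a pseudocount of 0.1 called 552 between days 7 and 10 and 671 between days 10 and 14, where 282 and 377 were called otherwise, and the share of higher calls between days 7 and 10 was 64.5%, or 49.8% with quantile normalization and 53.3% with TMM scaling. The cause of the other changes was not tested.

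Both gates came from the same groups of cells, but the sources used here do not say that a shared number marks a shared group. Same-numbered replicates did not deviate together, with correlations of -0.25, 0.16 and -0.05 in the sorted cells and -0.03 to 0.06 in the time course. Differently numbered libraries of the 2 gates gave -0.32 to 0.37, the highest for CD61 high replicate 1 with CD61 low replicate 3. The pairing could therefore not be read from the numbers. With the number as a replicate block the genes called between the gates were 1083 in place of 1113, and 1159, 1334 and 1707 were called at days 7, 10 and 14, as without it. The block left the count of the 8 genes at 2 between the gates and at 1, 0 and 2 at days 7, 10 and 14. Between the gates the edgeR adjusted p with the block was 2.89e-05 for Ostn and 0.00999 for Prkg1.

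Depth limits Nppa, Nppb, Nppc and, in the time course, Prkg1, for which no statement on a change below the level of 3 counts is possible. Each day has 2 libraries, and each gate 3.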
